A study of Mus musculus with 6 samples.

Results

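RNA levels of the genes that set the phosphorylation of the translation factor eIF2 were compared between wild-type (WT) and Setd5+/− neural stem cells (NSCs). The set held 10 genes of the 53110 listed in the deposited table, chosen by gene symbol, and all 10 passed the filter of a mean of at least 10 normalized counts, as did 16266 genes overall. They were the 4 eIF2 kinases Eif2ak1, Eif2ak2, Eif2ak3 and Eif2ak4, the relay genes Dele1 (listed under its older symbol 0610009O20Rik) and Oma1, the substrate Eif2s1, the exchange factor subunit Eif2b5, and the phosphatase subunits Ppp1r15a and Ppp1r15b.

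The cells were primary NSCs of the embryonic mouse cortex, grown attached to Matrigel with the growth factors bFGF and EGF in 21% oxygen. The WT group and the Setd5+/− group, made with CRISPR-Cas9, had 3 samples each. Both groups shared the medium, the oxygen level and the library kit. The headers of the value columns carried 1 index and 1 lane per genotype, 3 numbered parts of 1 sequence file for each, and the name of a single clone (A3) for the mutant.

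The 3 samples of a genotype differed little. Of the values from 1 to 10 reads, 75.1% were even, as would follow if most read pairs were counted at both ends, though the way of counting is not stated. With read counts divided by 2 for this reason, the chi-square per degree of freedom was 0.956 to 0.98 in the 6 pairs of samples within a genotype, and without that division it was 1.91 to 1.96. Between genotypes, the 9 pairs gave 31.9 to 32.1 with the division and 63.9 to 64.2 without it. With this and the shared index and lane, each genotype was counted as 1 library (n = 1), and the effect of the genotype cannot be told apart from that of the clone, the library, its index or its lane. Adjusted p-values compare the reads of the 2 libraries, and intervals cover counting error only. Reads on genes came to between 9995980 and 10004948 per WT sample and between 7143309 and 7146147 per Setd5+/− sample. Setd5, the edited gene, had 2498, 2749 and 2780 normalized counts in WT, against 2151, 1990 and 2055 in Setd5+/−, a fall of 0.37 on the log2 scale (adjusted p = 3.13e-09, limma).

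Of the neural stem cell markers 11 of 11 passed the filter, 3 of them higher and 7 lower in Setd5+/−. Their summed level was 75837 to 75966 normalized counts in WT and 54972 to 55770 in Setd5+/−, but 39734 to 40009 and 43404 to 44387 without Fabp7, which alone fell from 36015 to 11490. Of the 5 astrocyte markers 3 rose, Gfap, Aqp4 and S100b, and Aldh1l1 and Slc1a2 fell, with a median log2 difference of 1.12. The astrocyte sum was 5410 to 5540 in WT and 2419 to 2659 in Setd5+/−, and 788 to 808 against 1237 to 1397 without Slc1a2. The oligodendrocyte lineage list, with 3 markers higher and 4 lower, reached 40997 to 41788 in WT and 23688 to 24533 in Setd5+/−, and 12426 to 12606 and 8289 to 8652 without Olig1. Its largest fall was that of Sox10, from 298 to 1.59 normalized counts, and its largest rise that of Cspg4, from 769 to 1448. The neuron list summed to 385 to 414 in WT and 81 to 90.5 in Setd5+/−, with Neurod1 and Neurod6 without a read. In the microglia and endothelial lists 1 gene each passed the filter, Csf1r and Kdr, as did 1 mesenchymal gene, Thy1, which had 243 normalized counts in WT, against 1333 in Setd5+/−. The part of these differences in the results on eIF2 genes was not tested, and in bulk RNA fewer cells of a type and less RNA per cell cannot be told apart.

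eIF2 brings the initiator tRNA to the ribosome, and its alpha subunit, eIF2alpha, is phosphorylated by kinases that each answer to a different stress. HRI (Eif2ak1) senses low haem and, through DELE1, mitochondrial stress. PKR (Eif2ak2) senses double-stranded RNA, PERK (Eif2ak3) unfolded protein in the endoplasmic reticulum, and GCN2 (Eif2ak4) uncharged tRNA and stalled ribosomes. OMA1, a protease of the inner mitochondrial membrane, cuts DELE1 under mitochondrial stress, and the cut form activates HRI in the cytosol. Phosphorylated eIF2alpha blocks the exchange factor eIF2B, which lowers general translation and lets the mRNA of the transcription factor ATF4 be translated. Protein phosphatase 1 removes the phosphate when it is guided by CReP (Ppp1r15b), which is made constantly, or by GADD34 (Ppp1r15a), which is induced by stress. Phosphorylation, cleavage and protein levels were not measured here.

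Promoter windows of RefSeq (GRCm38.p6, from 250 bases before to 50 bases after the start) were found for 8 of the 10 genes, in 9 windows, and were searched on both strands for elements bound by factors of this pathway. The cAMP response element TGACGTCA was in the window of Ppp1r15a, at position −12 from the start site, and in 1.79% of all 32851 windows. The core AANNGAAA, which interferon regulatory factors bind, was in the windows of Eif2ak1, Eif2ak2, Eif2ak3, Ppp1r15a and Eif2s1 and in 23.9% of all windows. The core of the element bound by ATF4 with C/EBP proteins, TGATGNAA, was in none of the members' 9 windows and in 3.97% of all windows. Genes were matched to windows by the symbol of the deposited table. Ppp1r15b had no window, so its promoter was not searched for any of these elements. The stretches with the motif closest to the start are printed for the stress-induced phosphatase subunit and the double-stranded RNA kinase, with the motif in capitals, both on the minus strand, at chr7:45526269-45526340 for Ppp1r15a and, as the 30 bases around the site within the first exon, at chr17:78882541-78882570 for Eif2ak2.
Ppp1r15a: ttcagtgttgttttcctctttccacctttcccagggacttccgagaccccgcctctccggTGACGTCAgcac
Eif2ak2: aggcggagtccgccgggaAAACGAAAcaga

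Of the 10 genes, 2 were higher and 3 lower in Setd5+/− at an adjusted p under 0.05 (limma). Ppp1r15b and Dele1 rose, Eif2s1, Oma1 and Eif2ak1 fell, and the other kinases, Eif2b5 and Ppp1r15a did not pass the test. Against this, 61.3% of all tested genes passed, 30.3% higher and 30.9% lower, so that the share of members called, 50%, is below the background. A difference of at least 1.5-fold, without a test, was met by 2 of the 10 (Ppp1r15b and Dele1) and by 35.4% of all tested genes. The 3 values of one genotype lay all above the 3 of the other in 5 of the 10, against 65.3% of tested genes. The median log2 difference was 0.02 over the 10 genes and −0.02 over all tested genes.

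**Figure D1:**
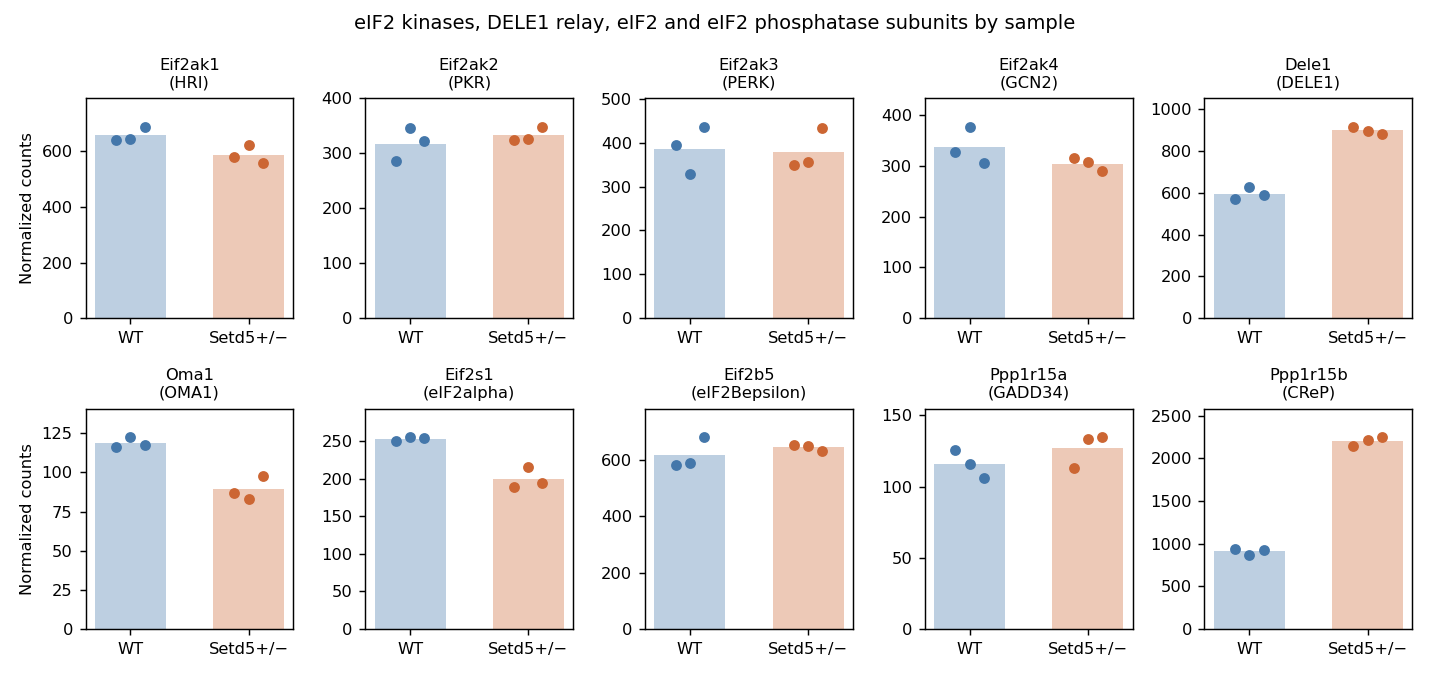
Normalized counts (y axis, from 0) of each of the 10 genes in the 3 WT samples (blue) and the 3 Setd5+/− samples (orange); dots are samples, which are parts of 1 library per genotype, and bars are their means. Ppp1r15b rises from a mean of 909 to 2199 and Dele1 from 597 to 900, while the dots of Eif2ak2, Eif2ak3, Eif2ak4, Eif2b5 and Ppp1r15a overlap between genotypes.

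The 4 kinases showed no difference beyond 1.5-fold, and 1 of them passed the test. Eif2ak1 (HRI; chr5:143817788-143904251, GRCm38, plus strand) had 639, 645 and 688 normalized counts in WT, against 580, 622 and 556 in Setd5+/−. All Setd5+/− values lay below all WT values, and the fall was 0.17 on the log2 scale (limma SE 0.0639, 95% counting interval −0.30 to −0.04, adjusted p = 0.0268). Among the 5 calls this one was lost under the most alternatives, namely when the median outside chromosome 1 was set to 0 (log2 difference −0.12, adjusted p = 0.0996) and without WT sample 3 (−0.13), Setd5+/− sample 1 (−0.16) or Setd5+/− sample 3 (−0.13). The exons of Eif2ak1 share 487 bases with Aimp2 on the opposite strand, a gene that had 248 normalized counts in WT, against 148 in Setd5+/−. Strand use in counting is not given in the sources used here, so reads of the shared bases cannot be assigned.

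Eif2ak2 (PKR; chr17:78852564-78882573, minus strand) had 285, 345 and 321 normalized counts in WT, against 324, 325 and 348 in Setd5+/−. The groups overlapped, with a log2 difference of 0.07 (interval −0.11 to 0.25, adjusted p = 0.512). Eif2ak3 (PERK; chr6:70844515-70905245, plus strand) had 395, 328 and 436 in WT and 349, 355 and 432 in Setd5+/−. Its values crossed over as well, and the log2 difference was −0.03 (interval −0.19 to 0.14, adjusted p = 0.833), or 0.02 with the median outside chromosome 1 set to 0. Eif2ak4 (GCN2; chr2:118388618-118475234, plus strand) had 328, 377 and 306 in WT and 316, 308 and 289 in Setd5+/−. Here 2 of the Setd5+/− values lay within the WT range, and the log2 difference was −0.14 (interval −0.32 to 0.04, adjusted p = 0.184).

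The log2 difference of Eif2ak1 minus that of Eif2ak2 was −0.24 (counting interval −0.46 to −0.02), while the intervals of Eif2ak1 minus Eif2ak3 (−0.35 to 0.07) and minus Eif2ak4 (−0.25 to 0.20) held 0. Levels per kilobase used the joined length of all annotated exons of a gene, not the length of the transcript expressed. Comparisons of levels between genes depend on this choice, which counting intervals do not cover. Per kilobase of exon, Eif2ak1 was the most abundant of the 4 kinase mRNAs in both genotypes, with 40.3% of their summed level in WT (39.7% to 40.8% over samples) and 38% in Setd5+/− (35.5% to 40.1%). Eif2ak4 held the smallest share, 15.8% in WT and 15% in Setd5+/−. The summed level of the kinases was 287 normalized counts per kb in WT (278 to 298) and 272 in Setd5+/− (266 to 277).

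The relay from mitochondria to HRI moved in opposite directions at its 2 steps. Dele1 (chr18:38250255-38265461, plus strand), the messenger that leaves the mitochondrion, had 572, 629 and 589 normalized counts in WT, against 918, 899 and 883 in Setd5+/−. The groups were far apart, with a rise of 1.51-fold (log2 difference 0.59, limma SE 0.0576, counting interval 0.47 to 0.71, adjusted p = 8.66e-10). Oma1 (chr4:103313812-103371868, plus strand), which cuts DELE1, was lower, with 116, 122 and 118 in WT and 87, 83.4 and 97.7 in Setd5+/−. All WT values exceeded all Setd5+/− values, a fall to 0.753 of the WT level (log2 difference −0.41, limma SE 0.15, interval −0.73 to −0.08, adjusted p = 0.02). At 225 reads in Setd5+/− and 430 in WT its interval was the widest of the members, and the call was lost without WT sample 2 (log2 difference −0.39) or without Setd5+/− sample 2 (−0.36).

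The log2 differences of Dele1 and Oma1 were 1.00 apart (counting interval 0.66 to 1.35), and those of Dele1 and Eif2ak1 0.76 apart (0.58 to 0.94). Per kilobase, Dele1 mRNA was 0.697 of Eif2ak1 mRNA in WT (interval 0.643 to 0.756) and 1.18 of it in Setd5+/− (1.08 to 1.29). With the exon lengths used, the order of sender and kinase turned around. Over Oma1 mRNA the same ratio was 1.46 in WT (1.26 to 1.69) and 2.93 in Setd5+/− (2.42 to 3.54). The exons of Dele1 share 145 bases with 1700086O06Rik, a long noncoding RNA on the opposite strand that was listed at 38.9 normalized counts in WT, against 80.6 in Setd5+/−.

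Of the substrate and the exchange factor, Eif2s1 fell and Eif2b5 did not pass the test. Eif2s1 (eIF2alpha; chr12:78861819-78887010, plus strand) had 250, 255 and 254 normalized counts in WT, against 188, 216 and 194 in Setd5+/−. The groups were apart, with a fall to 0.788 of the WT level (log2 difference −0.34, limma SE 0.102, interval −0.56 to −0.13, adjusted p = 0.00494). Eif2b5 (eIF2Bepsilon, the catalytic subunit of eIF2B; chr16:20498817-20509323, plus strand) had 583, 587 and 680 in WT and 654, 648 and 631 in Setd5+/−. These values overlapped, and the log2 difference was 0.07 (interval −0.06 to 0.20, adjusted p = 0.394).

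Bowtie2 does not split reads over introns, and for several of these genes a processed pseudogene, an intronless copy, also held reads. Gm12734 matches the Eif2s1 transcript at 96.8% identity over 949 bases and was listed at 74.8 normalized counts in WT, against 61.2 in Setd5+/−. With both added, in an alternative chosen after the copies were seen, the log2 difference of Eif2s1 was −0.33 (interval −0.52 to −0.14). For Eif2s2, the beta subunit, 21.6% of the summed reads in WT and 25.8% in Setd5+/− stood on the gene itself and the rest on Gm9892. The gene alone rose by 0.81 on the log2 scale (adjusted p = 7.29e-07), from 169 to 295 normalized counts, and gene and copy together gave 0.55 (interval 0.45 to 0.66). Eif2s3x, the gamma subunit, held 1.1% of its summed reads in WT, the others being on Gm2223. Its own log2 difference was 0.22 (adjusted p = 0.683, 34 reads in WT and 29 in Setd5+/−), and the sum of gene and copy gave 0.25 (0.15 to 0.36).

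Of the phosphatase subunits, Ppp1r15b rose and Ppp1r15a did not pass the test. Ppp1r15b (CReP; chr1:133131143-133139783, plus strand) had 938, 864 and 925 normalized counts in WT, against 2145, 2208 and 2244 in Setd5+/−. Every Setd5+/− value lay far above every WT value, a rise of 2.42-fold (log2 difference 1.27, limma SE 0.043, interval 1.19 to 1.36, adjusted p = 7.51e-20). Among all tested genes 11.2% changed by more in either direction. Ppp1r15a (GADD34; chr7:45522916-45526268, minus strand) had 126, 116 and 106 in WT and 113, 133 and 135 in Setd5+/−. Its groups overlapped, with a log2 difference of 0.13 (interval −0.16 to 0.42, adjusted p = 0.444).

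The log2 difference of Ppp1r15b exceeded that of Ppp1r15a by 1.14 (counting interval 0.84 to 1.45). Per kilobase, the constitutive subunit stood at 4.12 times the level of the stress-induced one in WT (interval 3.57 to 4.74) and 9.09 times in Setd5+/− (7.77 to 10.6). Exons of Ppp1r15b share 640 bases with the transcript Gm26616 on the opposite strand, listed at 55.5 normalized counts in WT, against 162 in Setd5+/−.

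**Figure D2:**
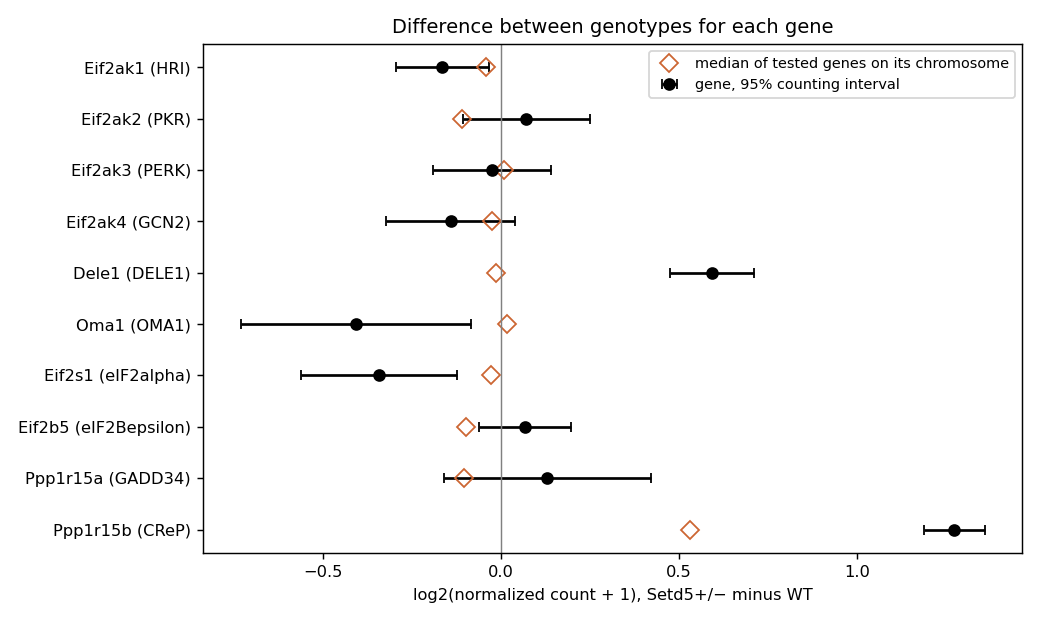
Difference of log2(normalized count + 1) between Setd5+/− and WT (x axis) for each gene, with 95% counting intervals (black), beside the median difference of all tested genes on the same chromosome (open diamonds). Ppp1r15b stands at 1.27 where the median of chromosome 1 is 0.53, and Dele1 at 0.59 where that of chromosome 18 is −0.02.

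Ppp1r15b lies on chromosome 1, whose genes were higher in Setd5+/− as a group, with a median log2 difference of 0.53 over 1044 tested genes, 79.1% of them above 0. The medians of the other chromosomes that carry a member ran from −0.11 to 0.02. Relative to its chromosome's median, Ppp1r15b was 0.74 higher on the log2 scale (counting interval 0.66 to 0.83), and 17% of the tested genes on chromosome 1 had a higher difference. The part of the chromosome-wide shift in its rise was not tested. Relative to the medians of their chromosomes, Dele1 stood at 0.61 (0.49 to 0.73), while Oma1 stood at −0.42 (−0.75 to −0.10), Eif2s1 at −0.31 (−0.53 to −0.10) and Eif2ak1 at −0.12, with an interval that held 0 (−0.25 to 0.01).

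Within 1000 kb of the start of Ppp1r15b, 21 other genes were tested, with a median log2 difference of 0.82, and 7 of them were above Ppp1r15b. Its nearest neighbours upstream, the phosphoinositide kinase gene Pik3c2b and the p53 regulator Mdm4, stood at 0.82 and 0.44, and Sox13, a transcription factor gene 293 kb downstream, at −1.01. The overlapping transcript Gm26616, which starts 0.639 kb away, stood at 1.54. Around Dele1, 64 genes were tested in the same distance, with a median of −0.03, and 13 of them were above Dele1. Many of the 64 are clustered protocadherin genes, and most of the gamma cluster were listed at nearly the same counts. Pcdhga8 and Pcdhgb4, for instance, had 9929 and 9931 normalized counts in WT, against 9713 and 9712 in Setd5+/−. The median falls among these entries, so it does not describe 64 separate neighbours. Of the closest neighbours of Dele1, the overlapping 1700086O06Rik stood at 1.03, the protocadherin gene Pcdh1 at 0.57 and the ubiquitin ligase gene Rnf14 at −0.04.

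**Figure D3:**
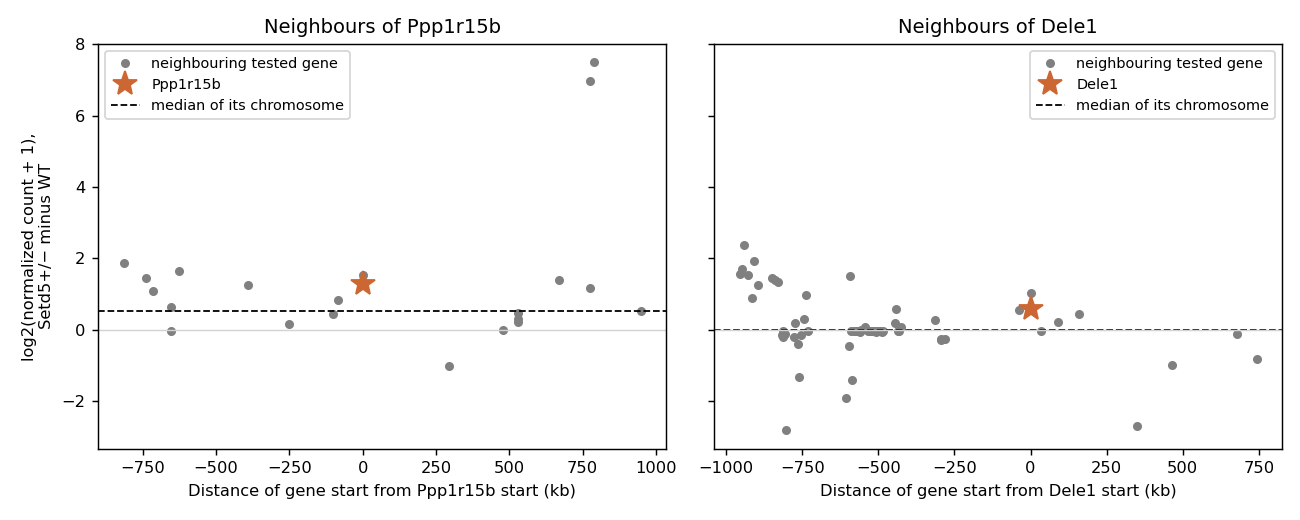
Difference of log2(normalized count + 1) between Setd5+/− and WT (y axis) against the distance in kb of each tested gene's start from that of Ppp1r15b (left) and of Dele1 (right); stars mark the 2 genes and dashed lines the median of their chromosome. Around Ppp1r15b most neighbours lie above 0, with a median of 0.82. Around Dele1 they lie on both sides of 0, with a median of −0.03 that falls among protocadherin entries listed at nearly the same counts.

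Ordered by normalized counts per kilobase of exon, the WT levels ran from Eif2b5 (238), Ppp1r15b (162), Eif2ak1 (116) and Dele1 (80.8) down to Ppp1r15a (39.5). Each of the first 4 exceeded the next in the order by more than the counting interval of their ratio. From Eif2ak3 (64.1) to Eif2ak2 (62), Oma1 (55.4) and Eif2s1 (51.1), neighbours in the order had ratios whose counting intervals held 1, as had Eif2ak4 (45.2) and Ppp1r15a. In Setd5+/− the order began with Ppp1r15b (393), Eif2b5 (248), Dele1 (122) and Eif2ak1 (103), each again above the next beyond counting error. The last 4, Ppp1r15a (43.3), Oma1 (41.7), Eif2ak4 (40.8) and Eif2s1 (40.3), had ratios to their neighbours whose intervals held 1. Reads lost at exon junctions or to pseudogenes lower these levels, and the length of all annotated exons can exceed that of the expressed transcript. The order thus holds for the reads as assigned and the lengths used.

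**Figure D4:**
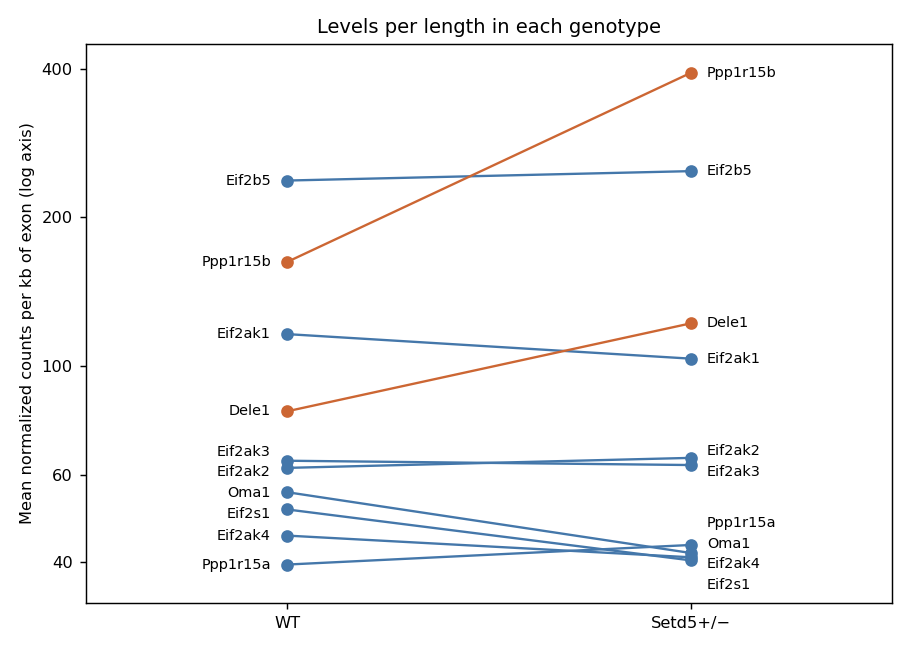
Mean normalized counts per kb of exon (log axis) of the 10 genes in WT (left) and Setd5+/− (right), with 1 line per gene; orange lines are Ppp1r15b and Dele1. Ppp1r15b passes Eif2b5, from 162 to 393 against 238 to 248, and Dele1 passes Eif2ak1, from 80.8 to 122 against 116 to 103.

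The other genes of the pathway were taken from lists by role, and their counts are set against the 61.3% of all tested genes that passed the test. Of the 8 tested subunits of eIF2 and eIF2B, Eif2s1 and Eif2b5 included, 1 rose and 4 fell, with a median log2 difference of −0.12. Besides Eif2s1, Eif2b1 fell from 360 to 230 normalized counts (log2 difference −0.66, adjusted p = 3.62e-06), Eif2b3 from 126 to 93.3 (−0.44, adjusted p = 0.0152) and Eif2b4 from 356 to 311 (−0.20, adjusted p = 0.0491). Eif2b2 did not pass the test (−0.04, adjusted p = 0.681). The call of Eif2b4 was lost under 8 of 14 alternative fits and that of Eif2b3 under 2, without WT sample 1 or Setd5+/− sample 1. The share of the list that passed, 62.5%, is near the background.

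Among 11 partners and inhibitors of the kinases, 2 rose and 4 fell (median −0.11). Prkra, which encodes the PKR activator PACT, fell from 421 to 248 (log2 difference −0.76, adjusted p = 4.08e-08), and Hsp90aa1, a chaperone of HRI and other kinases, by 0.79 on the log2 scale (adjusted p = 0.00059), though 13.5% of its summed WT reads lay on the gene itself, the rest on 3 pseudogenes, and the sum gave −0.43. Dnajc3, an inhibitor of PKR and PERK, rose from 517 to 666 (0.36, adjusted p = 5.13e-05), and Gcn1l1, the GCN2 activator, from 1031 to 1172 (0.18, adjusted p = 0.00221). Hspa5, the chaperone BiP that holds PERK inactive, was named after its values were seen: it had 4121, 4084 and 4098 in WT and 2611, 2623 and 2599 in Setd5+/− (−0.65, adjusted p = 5.67e-18).

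All 11 genes listed as partners of DELE1 and OMA1 passed the test, 3 higher and 8 lower (median −0.25). The largest rise was that of Lonp1, the protease of the mitochondrial matrix that also degrades DELE1, with 998, 989 and 1024 in WT and 1983, 2186 and 2114 in Setd5+/− (log2 difference 1.06, interval 0.97 to 1.14, adjusted p = 5.08e-18). Lonp1 mRNA per kilobase was 2.84 times that of Dele1 in WT (interval 2.64 to 3.06) and 3.93 times in Setd5+/− (3.67 to 4.21). Yme1l1, the inner membrane protease that degrades OMA1, rose from 915 to 1107 (0.28, adjusted p = 3.53e-05). Phb, which encodes prohibitin, fell from 194 to 80.2 (−1.35, adjusted p = 9.35e-07), and by 0.89 on the log2 scale with its 2 pseudogenes added. Pgam5, a mitochondrial phosphatase and OMA1 substrate, fell from 413 to 234 (−0.82, adjusted p = 2.47e-08).

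Of the 7 genes of protein phosphatase 1, which the PPP1R15 proteins guide to eIF2alpha, 1 rose and 4 fell (median −0.23). The catalytic subunit genes differed: Ppp1cb rose from 1394 to 1834 (log2 difference 0.40, adjusted p = 1.65e-09), Ppp1cc fell from 126 to 87 (−0.52, adjusted p = 0.00612) and Ppp1ca stood at 0.04 (adjusted p = 0.535). With the 4 pseudogenes of Ppp1cc added, its log2 difference was −0.37 (interval −0.50 to −0.24). The inhibitory subunit gene Ppp1r11 fell by 0.62 on the log2 scale (adjusted p = 4.87e-06), as did the nuclear subunit genes Ppp1r10 (−0.34, adjusted p = 3.03e-05) and Ppp1r8 (−0.23, adjusted p = 0.0106). Ppp1r2 stood at 0.18 (adjusted p = 0.202).

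Of 11 factors that deliver the initiator tRNA or choose the start codon, 2 rose and 5 fell (median −0.12). Eif5, which triggers GTP hydrolysis by eIF2, fell from 2422 to 1694 (log2 difference −0.52, adjusted p = 5.79e-13), and Bzw1, which resembles it, from 1815 to 1399 (−0.38, adjusted p = 4.77e-09). Eif2d, which can deliver tRNA without eIF2, rose from 345 to 444 (0.36, adjusted p = 0.000454). Eif1, a gene with 15 near-identical pseudogenes in the annotation, rose by 0.36 (adjusted p = 1.39e-06). Bzw1 and Eif2d lie on chromosome 1, whose median was 0.53, so the rise of Eif2d was smaller than that median.

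Among the genes downstream of eIF2 phosphorylation, 33 were listed, Atf4 and its targets, of which 31 were tested and 31 rose, with a median log2 difference of 1.81 and a range from 0.11 (Ddit4) to 8.67 (Trib3). The other two were below the filter: Gdf15 had 11 reads in WT and 2 in Setd5+/−, and Fgf21 had 0 and 8. Trib3, Atf3, Chac1, Nupr1 and Cebpb had WT means below 10 and passed the filter only through their Setd5+/− values. At such WT means a fall would have left them below the filter, so their rise could not have been a fall in this count. The other tested genes of the list had WT means of at least 10 and rose as well. The list was chosen with earlier results of these data known, so its direction is not independent evidence. Trib3, a pseudokinase that feeds back on ATF4, had 4 reads in all of WT and 579, 686 and 730 normalized counts in the Setd5+/− samples (adjusted p = 2.85e-17), and the stress-induced chromatin protein gene Nupr1 rose from 7.18 to 525 (log2 difference 6.01, adjusted p = 1.45e-20). Atf4 mRNA itself, named after its values were seen, had 1353, 1388 and 1374 in WT and 2098, 2289 and 2099 in Setd5+/− (0.65, interval 0.58 to 0.73, adjusted p = 4.99e-14). Ddit3, likewise named afterwards, encodes CHOP, a factor that induces Ppp1r15a in stressed cells, and rose from 122 to 581 (2.25, adjusted p = 2.48e-17), beside the 0.13 of Ppp1r15a. The motif TGATGNAA was in 12 of the 34 promoter windows found for 29 genes of the list.

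**Figure D5:**
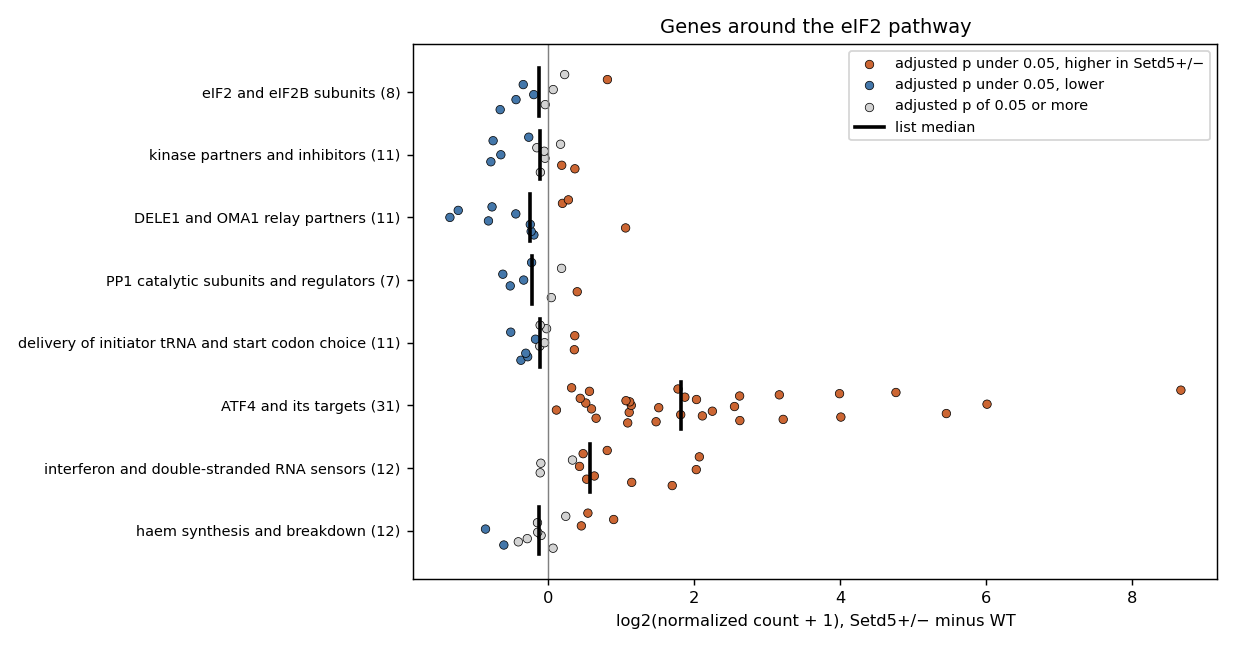
Difference of log2(normalized count + 1) between Setd5+/− and WT (x axis) for each tested gene of 8 lists, with the number tested in brackets; orange and blue dots passed the test (adjusted p under 0.05, limma) as higher or lower, grey dots did not, and black bars are list medians. All 31 dots of the ATF4 list lie above 0, with a median of 1.81, and some of these genes passed the filter only through Setd5+/−. The medians of the lists of eIF2 subunits, partners, phosphatase and initiation genes lie between −0.25 and −0.11.

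The list of interferon genes and sensors of double-stranded RNA had 9 of 12 tested genes higher and 0 lower in the limma test, with a median log2 difference of 0.58. Of these, Irf7 (WT mean 4.42) passed the filter only through its Setd5+/− values. At an unadjusted p under 0.05 the count of lower genes was 0 as well, with Irf3 at −0.11 (adjusted p = 0.211) and Mavs at −0.10 (adjusted p = 0.375). Ddx58, which encodes the sensor RIG-I, rose from 114 to 372 normalized counts (log2 difference 1.70, adjusted p = 3.82e-13). The interferon-induced genes Ifit1, Ifit3, Isg15, Oas1a, Oas2, Oas3 and Mx1 were below the filter, with Oas1a and Oas3 without a read, and Eif2ak2, itself an interferon-induced gene, stood at 0.07. The core AANNGAAA was in 8 of the 15 promoter windows found for 14 genes of this list.

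Haem is the ligand of HRI, and of 12 tested genes of its synthesis and breakdown 3 rose and 2 fell (median −0.12). Alas1, the first and rate-limiting enzyme of synthesis, fell from 583 to 382 (log2 difference −0.61, adjusted p = 1.97e-08). Uros, a later step, rose from 166 to 243 (0.54, adjusted p = 0.000158), Ppox, on chromosome 1, from 808 to 1505 (0.90, adjusted p = 5.93e-15), and Hmox1, the inducible haem oxygenase, from 485 to 665 (0.45, adjusted p = 2.03e-06). The steps thus moved in both directions beside the fall of Eif2ak1.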

How the data were processed

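RNA-seq of NSCs at 21% oxygen was analysed. Per the labels and the study's methods, libraries (TruSeq RNA v2, paired end) were trimmed with Trimmomatic and aligned to mm10 with Bowtie2; versions, the counting program and its use of strand are not given in the sources used here. The authors deposited counts divided by DESeq2 size factors, with their decimal points lost, and columns of their own comparison (log2 fold changes, statistics and p-values), which were not used. Of 53110 genes, 672 had no values. Points were placed where values became whole reads (tolerance 0.002 reads), in 1116 genes with the help of the deposited mean. Both steps were tested on simulated data. Genes with a mean of at least 10 were compared on the scale log2(normalized count + 1) by limma 3.58.1 in R 4.3.3, with trended eBayes, Benjamini-Hochberg adjusted over 16266 genes, threshold 0.05. Fold changes are on that scale, which understates changes of low genes. Counting intervals (95%) used reads summed over a genotype and the measured variance over mean (1.95 in WT, 1.93 in Setd5+/−). Members and lists were chosen with earlier results of these data known. Named genes were the members, Setd5, the phosphatase list, and in longer lists the 2 largest falls and rises among genes with a mean of at least 50; markers are given by counts, and some genes that this rule names are not reported here. Coordinates and exon lengths, the latter joined over all annotated exons of a gene, are from GENCODE M21 (GRCm38). Near-identical copies were found with blastn 2.17.0 (at least 95% identity over 200 bases).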

Additional observations from a re-analysis of the deposited data

How the results depend on the processing

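The 10 genes and 8 pathway lists were refitted with other pseudocounts, filters and scalings, a replicate block, and each sample left out in turn. The count tools edgeR and DESeq2 were not run, though the restored values were whole reads. Of 394 values, 369 kept their direction and call or, for counts, stayed within 1.5 times. Ppp1r15b (log2 difference 1.24 to 1.32), Dele1 (0.55 to 0.64) and Eif2s1 (−0.40 to −0.30) passed the limma test under all 14 alternative fits. With the median outside chromosome 1 set to 0, Eif2ak1 no longer passed (−0.12) and Eif2ak3 turned to 0.0172. Leaving out samples moved Eif2ak1 between −0.21 and −0.13, Oma1 between −0.47 and −0.36, Eif2ak2 between −0.0032 and 0.13 (negative without WT sample 1) and Eif2ak3 between −0.14 and 0.0662 (positive without WT sample 3 or Setd5+/− sample 1 or 2). The count of members called was then 4 to 5, and that of all genes 9160 to 9553. It also moved the median of the eIF2 and eIF2B list between −0.26 (without Setd5+/− sample 1) and −0.10 and its calls between 3 (without WT sample 1) and 4, the calls of the protein phosphatase 1 list between 3 (without WT sample 3) and 5, and the ATF4 list's median between 1.75 and 1.85. The interferon list's median was 0.53 to 0.62 with samples left out, 0.53 with a minimum mean of 50, 0.49 with no filter, 0.54 with upper quartile scaling, 0.54 with total scaling and 0.62 with the median outside chromosome 1 at 0. Total scaling gave 8 calls among haem genes against 5. A log2 difference of at least 1 besides the p left 1 member and 2696 genes. The cause of these moves was not tested. With the replicate number as a block, 5 members and 9946 genes passed, and the eIF2 and eIF2B list had 4 calls; same-numbered samples did not deviate together (correlations 0.00131, −0.0151 and −0.0122), so the numbers mark no pairing. Depth limits Oma1 most, with 225 reads in Setd5+/−.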
